A study of Mus musculus with 45 samples.

Results

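The activity-regulated immediate early genes described here are Fos, Fosb, Junb, Egr1, Egr2, Egr4, Arc, Npas4, Nr4a1 and Dusp1. These 10 genes were taken as a fixed list of symbols, and each matched 1 row of the 18135 genes in the deposited table. Their levels were read in 45 samples of prefrontal cortex (called cortex below), hippocampus and striatum from male C57BL/6J mice of 13 weeks. In each region 5 samples were WT, 5 were Shank3-HT (heterozygous) and 5 were Shank3-HM (named knock-out in the sample titles and KI in the column headers of the deposited table, read here as the same group), which carry a germline deletion of exons 14 to 16 of Shank3 in every cell and not in 1 chosen cell type. Shank3 is a scaffold protein of the excitatory postsynapse. The labels give replicate numbers 1 to 5 in each group but no animal identity and no treatment or stimulus before dissection. The p values below therefore measure the spread between these samples. None of the 10 genes passed the test for a genotype difference in any region, where 0% to 0.182% of all genes did. In each genotype 9 of them were higher in the cortex than in the hippocampus, as were 21.2% to 23.3% of all genes. Within groups their levels rose and fell together from sample to sample. In the cortex 8 of the other 9 genes passed the test for covariation with Fos (5 of 9 with Egr1 as the reference), where 0.121% of all genes did. In the hippocampus 3 of 9 and in the striatum 5 of 9 passed, where 0.0241% and 0.0425% of all genes did. The striatal calls rested on 1 WT sample, and with Egr1 as the reference no member passed in hippocampus or striatum.

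Immediate early genes are switched on within minutes of neuronal firing, without the need for new protein synthesis. Calcium entry and growth factor signals act through CREB and SRF, factors that already sit on their promoters, and the transcripts are short-lived. Their level in brain tissue is therefore widely used as a record of recent neuronal activity. The members fall into 3 roles. Fos, Fosb and Junb encode subunits of the AP-1 transcription factor, and Egr1, Egr2, Egr4, Npas4 and Nr4a1 encode other inducible transcription factors, with zinc fingers in the Egr proteins, a bHLH-PAS domain in Npas4, which regulates inhibitory synapses, and a nuclear receptor fold in Nr4a1. Arc and Dusp1 act outside transcription: Arc promotes the removal of AMPA receptors from synapses, and Dusp1 dephosphorylates MAP kinases and so ends the signal that induces the group.

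The stretch of DNA just upstream of these genes is shown because the results turn on their moving together. Sequences are from RefSeq (GRCm38.p6), with windows matched for 8 of the 10 genes (all but Arc and Egr1). Each run below is the 250 bases before a transcription start site, read 5′ to 3′ on the strand of the gene. Capitals mark TGACG or its reverse complement CGTCA, which is the shorter form of the CREB site, and in Egr2 also the CArG box, which is the SRF site. The windows are those of Fos (chr12:85473640-85473889, plus strand), Dusp1 (chr17:26508473-26508722, minus strand), Nr4a1 (chr15:101266596-101266845, plus strand), Npas4 (chr19:4989972-4990221, minus strand) and 1 of 5 Egr2 windows (chr10:67537619-67537868, plus strand).
Fos: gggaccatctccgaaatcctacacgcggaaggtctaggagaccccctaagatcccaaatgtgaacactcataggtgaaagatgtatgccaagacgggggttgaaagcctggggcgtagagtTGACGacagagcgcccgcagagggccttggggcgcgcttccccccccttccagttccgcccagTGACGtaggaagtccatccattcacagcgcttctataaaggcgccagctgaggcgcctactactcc
Dusp1: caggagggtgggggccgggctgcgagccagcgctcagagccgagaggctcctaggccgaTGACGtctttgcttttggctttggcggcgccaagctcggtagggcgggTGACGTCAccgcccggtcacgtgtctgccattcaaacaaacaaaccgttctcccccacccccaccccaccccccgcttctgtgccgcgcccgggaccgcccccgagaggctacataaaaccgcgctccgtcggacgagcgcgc
Nr4a1: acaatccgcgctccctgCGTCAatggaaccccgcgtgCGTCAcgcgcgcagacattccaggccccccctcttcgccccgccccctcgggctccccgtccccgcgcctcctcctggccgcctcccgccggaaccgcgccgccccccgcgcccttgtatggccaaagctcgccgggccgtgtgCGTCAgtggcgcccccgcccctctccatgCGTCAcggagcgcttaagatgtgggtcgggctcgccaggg
Npas4: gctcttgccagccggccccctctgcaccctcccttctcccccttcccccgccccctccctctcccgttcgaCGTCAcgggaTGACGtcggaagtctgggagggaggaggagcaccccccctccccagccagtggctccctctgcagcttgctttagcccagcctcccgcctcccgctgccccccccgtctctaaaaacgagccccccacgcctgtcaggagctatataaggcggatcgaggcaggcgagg
Egr2: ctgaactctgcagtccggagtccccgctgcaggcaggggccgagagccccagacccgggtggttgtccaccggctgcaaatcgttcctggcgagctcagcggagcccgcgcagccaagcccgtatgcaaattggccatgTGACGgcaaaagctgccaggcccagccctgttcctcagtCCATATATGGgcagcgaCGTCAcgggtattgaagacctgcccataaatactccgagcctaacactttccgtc
Motifs were searched on both strands over the 250 bases before each start site. Their shares were taken over the same stretch of all 32851 windows of mouse genes in the same source. TGACG was present in at least 1 window of each of the 8 genes and in 17.8% of all windows. Counts of members are of genes and the shares are of windows. Egr2 had 5 of the 12 windows of members, and not all of its windows held TGACG. The full palindrome TGACGTCA, which contains TGACG, was present in Dusp1 alone among the 8, where it lay at positions -143 to -136 from the start site, and in 1.55% of all windows. A CArG box was present in Egr2 alone among the 8 (1.47% of all windows). The TATA box TATAAA was found in Fos (12.4% of all windows), the Egr site GCGNGGGCG in Fosb and Nr4a1 (4.7%), and the AP-1 site TGANTCA in none of the 8 (6.75%). A match is a description of the letters in these windows and shows no binding.

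Before the results, the samples were checked against their labels. Shank3 followed the labels in all 3 regions with no overlap between genotypes: its mean normalized count in WT, HT and HM samples was 8005, 6138 and 4054 in the cortex, 7944, 5886 and 3801 in the hippocampus, and 12317, 8725 and 5735 in the striatum. The summed level of 9 markers of striatal spiny projection neurons was 187574 to 254959 in the striatum and 4395 to 5220 in the hippocampus. In the cortex it was 50966 in Shank3-HM replicate 2, which also had the lowest cortical projection neuron sum of that region (8879), and it was 5639 to 7721 in the other 14 samples. Without this sample there were 0 members called between genotypes in the cortex and 8 of 9 called for covariation with Fos. The summed level of 6 choroid plexus markers ran from 1307 to 123200 in the hippocampus. In the striatum it was 68474 in Shank3-HT replicate 5 and 457 to 1552 in the other 14 samples. Across 27 relations of 9 marker lists with Fos, Pearson's r lay between -0.498 and 0.633 and none passed adjustment (lowest adjusted permutation p = 0.587 for r and 0.488 for Spearman's rho), and their part in the results below was not tested.

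The deposited values are normalized counts, so levels of different genes were compared only after division by the length of each gene's exons. On this scale Arc and Egr1 were the most abundant members in every region, with 3739 and 2681 normalized counts per kb in the cortex, 1346 and 711 in the hippocampus, and 1818 and 2772 in the striatum (means of 15 samples). Nr4a1 and Junb came next in all 3 regions. The lowest members per kb were Fosb and Egr2, at 84.3 and 101 in the cortex, 36.7 and 22.7 in the hippocampus, and 99.1 and 158 in the striatum. Fos ranked 5th of 10 in the cortex, with 431 per kb, and 8th in the striatum, with 190.3.

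**Figure D1:**
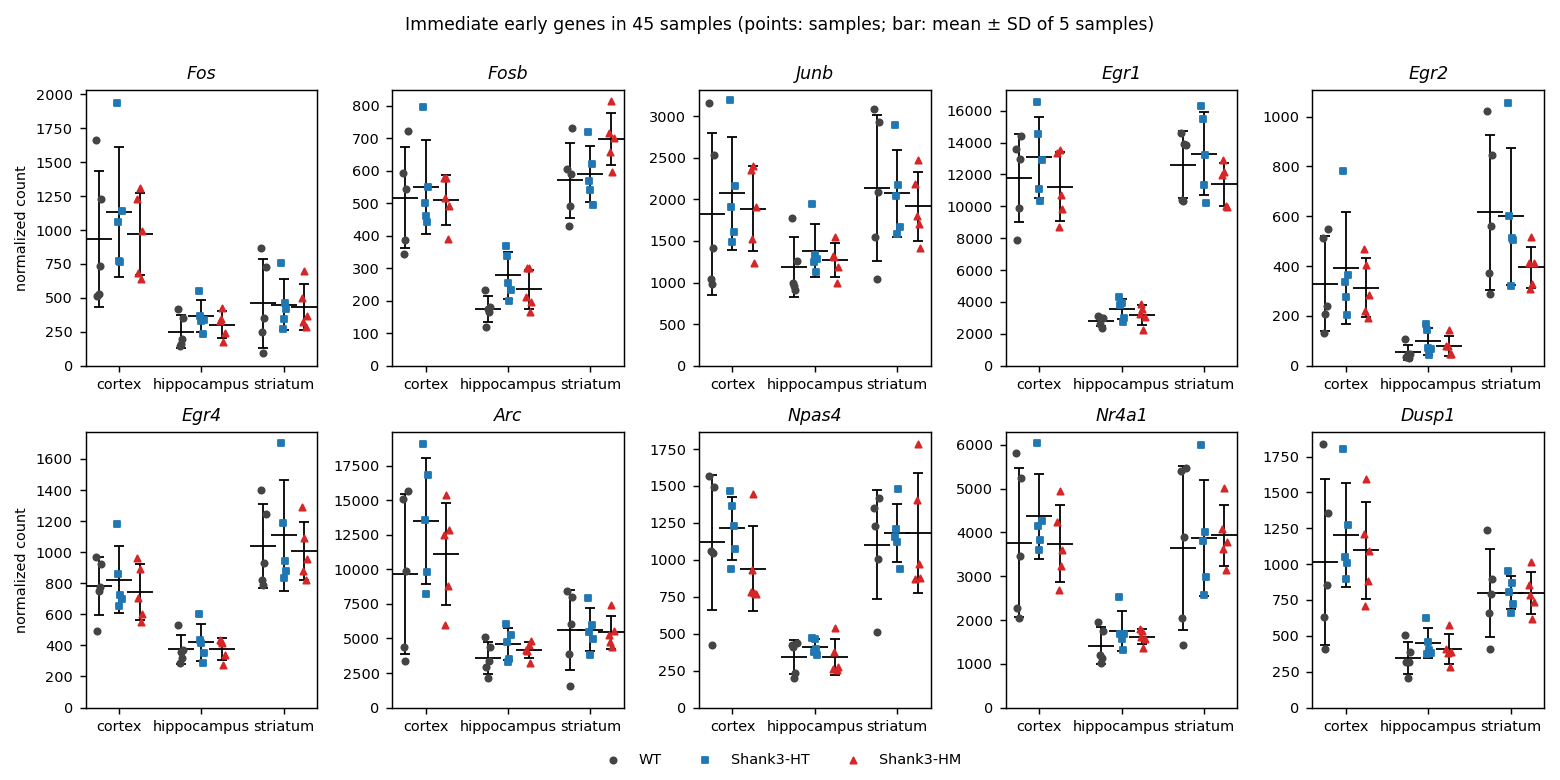
Normalized counts (y axis, from 0) of the 10 immediate early genes in cortex, hippocampus and striatum (x axis), with 1 point per sample, WT as grey circles, Shank3-HT as blue squares and Shank3-HM as red triangles, and bars for the mean ± SD of 5 samples. Within a region the 3 genotypes overlap for every gene, and for 9 genes the hippocampal points lie mostly below the cortical ones (Fos 145 to 554 in the hippocampus and 514 to 1939.5 in the cortex), with the overlap of Junb seen in each genotype.

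Regions were compared within each genotype in 1 limma fit of the 9 groups on log2(value + 1), with p values adjusted over 16708 genes by the Benjamini-Hochberg method. In bulk tissue, fewer cells that express a gene and less RNA per cell cannot be told apart. In cortex against hippocampus, 9 of 10 members were higher in the cortex in each of the 3 genotypes (WT, Shank3-HT, Shank3-HM), where 23.3%, 22.1% and 21.2% of all genes tested were called higher. The median log2 difference of the members was 1.47, 1.46 and 1.38, and that of all genes lay within 0.01 of 0 in each. The exception in each genotype was Junb, whose difference was 0.51 (SE 0.27, adjusted p = 0.122) in WT, 0.55 (adjusted p = 0.0956) in Shank3-HT and 0.54 (adjusted p = 0.109) in Shank3-HM samples. This fit treats samples of different regions as independent, although same-numbered samples of different regions may share a mouse, which the labels do not state. Junb was higher in the cortex in 15 of 15 same-numbered pairs, and with the replicate number as a block its adjusted p values were 0.00194, 0.000963 and 0.00132, so that 10 of 10 members were called. The shares of all genes above are of the fit without the block.

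Fos, the AP-1 subunit most used to mark active neurons, had normalized counts of 1664, 514, 531, 738 and 1230.2 in the WT cortex (replicates 1 to 5). In the WT hippocampus they were 414, 145, 157, 193 and 349.7. In the WT striatum they were 871, 249.9, 92.1, 355 and 729. All cortical values exceeded all hippocampal values, and the striatal group, which spread 9.46-fold, overlapped both. The log2 difference between cortex and hippocampus was 1.86 (SE 0.41, adjusted p = 0.000196), a 3.64-fold difference. Fos was also 2.39-fold higher in the cortex than in the striatum (adjusted p = 0.00753), and this call was lost without striatal WT replicate 3 (adjusted p = 0.0739), which had the lowest value. Fosb, which pairs with Jun proteins as Fos does, was 517 ± 155 (SD, n = 5) in the cortex, 175 ± 40.1 (SD, n = 5) in the hippocampus and 570.0 ± 115 (SD, n = 5) in the striatum of WT mice. Its difference between cortex and hippocampus was 1.54 (SE 0.19, adjusted p = 7.18e-09) and that between cortex and striatum was -0.17 (95% interval -0.56 to 0.22, adjusted p = 0.467).

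Among the members, Egr2 and Egr1 differed most between the WT cortex and hippocampus. Egr2, a zinc finger factor also known from myelinating Schwann cells, had normalized counts of 514, 131, 209, 241 and 550.2 in the WT cortex. In the WT hippocampus they were 106, 35.5, 46.5, 32.1 and 48.8, and in the WT striatum 1020.4, 371, 286, 562 and 844. No hippocampal value reached the lowest value of either other region. The log2 difference was 2.52 (SE 0.41, adjusted p = 1.51e-06) for cortex against hippocampus and -3.47 (SE 0.41, adjusted p = 8.5e-10) for hippocampus against striatum. Egr1 was 11767 ± 2746 (SD, n = 5) in the cortex, 2818 ± 328 (SD, n = 5) in the hippocampus and 12610.2 ± 2087 (SD, n = 5) in the striatum of WT mice. Its level in the hippocampus was thus 4.1-fold below the cortex (adjusted p = 3.91e-14), while cortex and striatum differed by -0.12 on the log2 scale (95% interval -0.44 to 0.21). Egr4 was 2.08-fold higher in the WT cortex than in the hippocampus (adjusted p = 5.09e-05), with 1 cortical value inside the hippocampal range.

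In hippocampus against striatum, 8 of 10 members were lower in the hippocampus of WT mice and 7 of 10 in that of each mutant, where 27.8%, 26.4% and 26.7% of all genes were called lower. With the replicate number as a block the counts were 10, 8 and 9, and these shares of all genes are of the fit without the block. Without it, Fos and Arc did not pass in any genotype (Fos -0.60 in WT with a 95% interval of -1.43 to 0.22, Arc -0.48 with -1.20 to 0.24). Junb passed in WT (-0.79, adjusted p = 0.0126, lost without striatal WT replicate 1 at 0.0573 or replicate 5 at 0.0505), but not in Shank3-HT (adjusted p = 0.0715) or Shank3-HM samples (0.0666). Npas4 showed the pattern clearly, with 421, 412, 199, 233 and 437 in the WT hippocampus and 1353, 1231, 511, 1003 and 1417 in the WT striatum. These groups did not overlap and differed by -1.68 (SE 0.28, adjusted p = 1.68e-06). Nr4a1 and Dusp1 differed in the same direction by -1.23 and -1.17 (adjusted p = 0.000257 and 0.000431).

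The fewest members passed between cortex and striatum. In WT samples 2 of 10 passed, in Shank3-HT samples 2 and in Shank3-HM samples 3, where 59.3%, 58.6% and 57.4% of all genes were called in either direction. With the replicate number as a block the counts were 4, 5 and 6, and these shares of all genes are of the fit without the block. Fos was higher in the cortex of both mutants (1.33 in Shank3-HT, adjusted p = 0.00486, and 1.18 in Shank3-HM, adjusted p = 0.0123). It was also higher in the WT cortex, a call that was lost without striatal replicate 3 (0.78, adjusted p = 0.0739) and with only the 2 groups in the fit (adjusted p = 0.0518). Arc was higher in the cortex of Shank3-HT (1.23, adjusted p = 0.00292) and of Shank3-HM mice (0.97, adjusted p = 0.0181, lost without cortical Shank3-HM replicate 3 at 0.0579), and was 0.76 with an adjusted p of 0.0643 in WT mice. Egr2 was lower in the WT cortex (-0.95, adjusted p = 0.041), a call that was lost without any 1 of 6 samples, and Fosb was lower in the Shank3-HM cortex (-0.45, adjusted p = 0.0401), also lost without any 1 of 6 samples. In WT the count fell to 1 without cortical replicate 4, striatal replicate 3 or striatal replicate 4, and in Shank3-HT mice it rose to 4 without cortical replicate 1.

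The study compared both mutant genotypes with WT in each region. In the cortex 0 of 10 members passed in Shank3-HT samples, where 0% of 16507 genes were called, and 0 of 10 in Shank3-HM samples, where 0.0121% were. The hippocampus also gave 0 of 10 for both genotypes, with 0.00603% of 16571 genes called in each. In the striatum 0 of 10 passed for Shank3-HT (0.00607% of 16482 genes) and 0 of 10 for Shank3-HM samples (0.182%). At an unadjusted p below 0.05 there were 0 and 0 members in the cortex, 2 and 0 in the hippocampus, and 0 and 1 in the striatum, against 443, 907, 871, 783, 1224 and 1225 of all genes in the same order. No member had mutant values that were all above or all below the WT values, which held for 0.63%, 0.8%, 0.797%, 0.736%, 0.971% and 1.86% of all genes.

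In the cortex the members' log2 fold changes were positive for 10 of 10 in Shank3-HT (median 0.30) and for 7 of 10 in Shank3-HM samples (median 0.07). Of all genes 49.6% and 49.1% were positive, with medians within 0.01 of 0. Arc differed most in both mutant genotypes. Its normalized counts were 15119, 4396, 3366, 9868 and 15659.7 in WT, 19071, 13594, 8210.1, 9826 and 16849 in Shank3-HT and 12471, 5975, 15405, 8814 and 12839 in Shank3-HM cortex. The lowest WT samples, replicates 2 and 3, lay below all Shank3-HT samples, and replicates 1 and 5 lay above 3 of the 5 Shank3-HT samples. The log2 fold change was 0.67 (SE 0.39, 95% interval -0.14 to 1.48, adjusted p = 0.9997) in Shank3-HT and 0.38 (SE 0.39, 95% interval -0.43 to 1.19, adjusted p = 0.916) in Shank3-HM samples. Without WT replicate 3 the median over the members was 0.11 in Shank3-HT samples, and -0.064 in Shank3-HM samples, with 1 of 10 positive. The latter was -0.090 without WT replicate 2, with 3 of 10 positive, and -0.026 without Shank3-HM replicate 3, with 4 of 10 positive.

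In the hippocampus 10 of 10 members had positive fold changes in Shank3-HT (median 0.36) and 10 of 10 in Shank3-HM samples (median 0.25), where 52% and 51.5% of all genes did and their medians lay within 0.01 of 0. The members covaried between samples (below), so such counts, here and in the other regions, are not 10 independent observations. Fosb was 233, 120.4, 175, 166 and 182 in WT, 369, 338, 255, 198 and 233 in Shank3-HT and 212, 299.7, 299, 166 and 196 in Shank3-HM samples. Of the Shank3-HT samples 4 of 5 exceeded the highest WT value (the nearest at 233.3 against 232.7), and 1 lay inside the WT range. The log2 fold change of Fosb in Shank3-HT samples was 0.66 (SE 0.20, 95% interval 0.23 to 1.08), with an unadjusted p of 0.00452 and an adjusted p of 0.926. Egr1 followed with 0.33 (SE 0.14, adjusted p = 0.926). Egr2 had the largest fold change but also a wide interval, at 0.80 in Shank3-HT (95% interval -0.02 to 1.63) and 0.57 in Shank3-HM samples (-0.25 to 1.39). Leaving out 1 sample at a time kept 10 of 10 positive in Shank3-HT samples (median 0.233 to 0.490), and 8 to 10 in Shank3-HM samples (0.116 to 0.385). Without WT replicate 1, 8 members had an unadjusted p below 0.05 in Shank3-HT samples and 4 in Shank3-HM samples, where 5.58% and 3.99% of all genes did, and no call was made after adjustment.

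In the striatum the fold changes were positive for 10 of 10 in Shank3-HT (median 0.08) and 6 of 10 in Shank3-HM samples (median 0.10), where 48% and 50.3% of all genes were positive. These signs rested on single samples: without WT replicate 3 the medians were -0.11 with 2 of 10 positive and -0.18 with 1 of 10 positive, and without Shank3-HM replicate 3 the latter was -0.028 with 4 of 10 positive. Fosb had 607, 431, 491, 589 and 731 in WT and 715, 657, 813, 597 and 702 in Shank3-HM samples. The highest Shank3-HM value was above all WT values and the other 4 lay inside the WT range. Its log2 fold change was 0.31 (SE 0.13, unadjusted p = 0.0284, adjusted p = 0.619). Egr2 differed in the other direction, with 617 ± 311 (SD, n = 5) in WT and 395 ± 82.9 (SD, n = 5) in Shank3-HM samples (log2 fold change -0.51, SE 0.32, adjusted p = 0.797). For Fos the Shank3-HT fold change was 0.27 (95% interval -0.70 to 1.25) and turned to -0.20 without WT replicate 3.

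**Figure D2:**
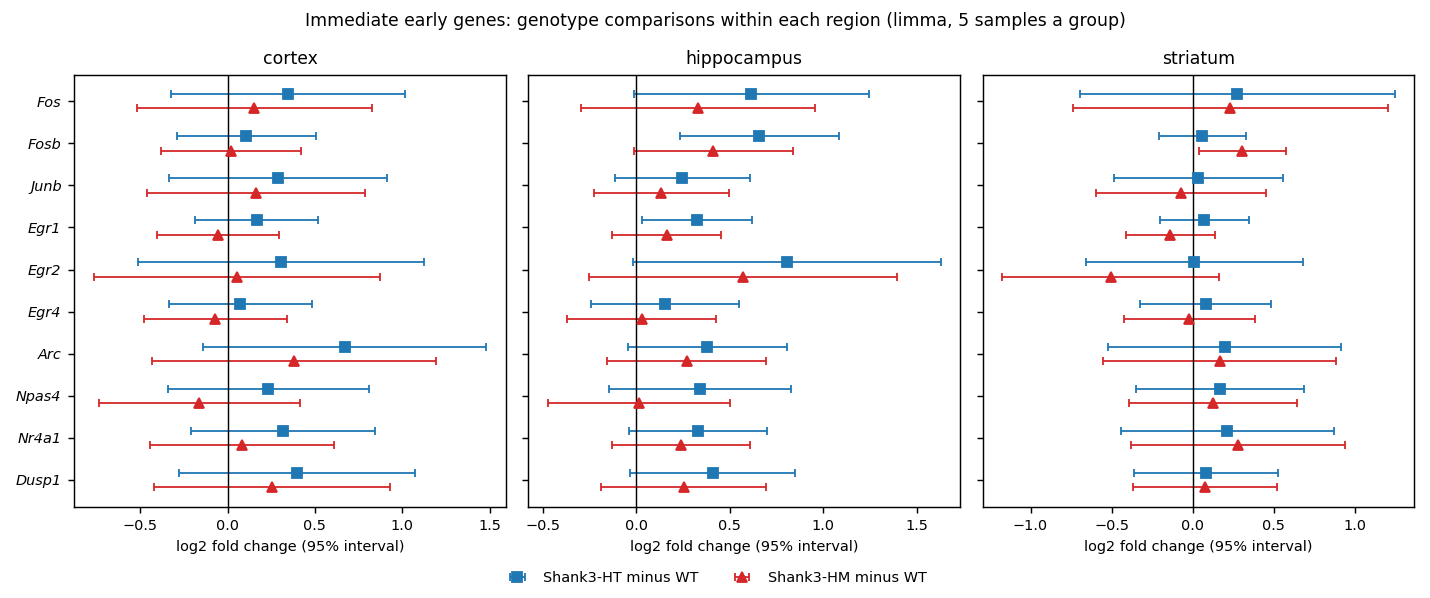
Log2 fold changes against WT (x axis, with 95% intervals from limma) of the 10 genes (y axis) in cortex, hippocampus and striatum, for Shank3-HT (blue squares) and Shank3-HM (red triangles), each from 5 samples a group. All intervals except those of Fosb and Egr1 in Shank3-HT hippocampus and Fosb in Shank3-HM striatum include 0, and none of the 60 differences passed adjustment.

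The width of these intervals follows from the spread of the members inside a group. Their residual SD on the log2 scale was 1.77 times (Fosb in the striatum) to 7.58 times (Arc in the cortex) the value of limma's trend for genes of the same level. For Arc in the cortex the SD was 0.73, and the median over all genes of that region was 0.16.

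Whether the genotype effect differed between regions was tested with interaction terms. It passed for 0 of 10 members in each of 6 tests, with a lowest adjusted p of 0.869 for Fosb (Shank3-HT, hippocampus against striatum, 0.60, SE 0.27). At an unadjusted p below 0.05 there were 1, 0 and 1 members in the Shank3-HT tests and 0 in the Shank3-HM tests, in the order given next, where 3.35%, 3.46% and 5.6% of all genes lay below it in the Shank3-HT and 4.45%, 5.42% and 5.37% in the Shank3-HM tests. Of all genes 0%, 0% and 0% were called in the Shank3-HT tests, and 0%, 0.0539% and 0.0718% in the Shank3-HM tests of cortex against hippocampus, cortex against striatum and hippocampus against striatum.

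Other genes of the pathway were read from 4 lists: 19 other immediate early transcription factors such as Jun, Egr3 and Nr4a2, 29 activity-regulated effectors such as Homer1 and Bdnf, 25 upstream signalling genes and regulators, and 8 binding partners and co-repressors. Of these 81 genes 2 passed a genotype test, both effectors and both higher in the Shank3-HM striatum. In that comparison 0.182% of all genes were called, and for 1.86% the 2 groups did not overlap. Nptx2 encodes neuronal pentraxin 2, which gathers AMPA receptors at excitatory synapses. Its normalized counts were 492, 525, 537, 598 and 742 in WT and 1157, 873, 836, 884 and 1088 in Shank3-HM striatum. These groups did not overlap (log2 fold change 0.74, SE 0.12, adjusted p = 0.0142), and the call held in all 17 alternatives tried. In Shank3-HT striatum Nptx2 was 560.3 ± 78.4 (SD, n = 5). Inhba encodes the beta A subunit of activin. It was 598, 684, 676, 570.1 and 512 in WT and 814, 737, 865, 895 and 946 in Shank3-HM striatum, which did not overlap (0.49, SE 0.094, adjusted p = 0.0414), but this call was lost in 12 of 17 alternatives (adjusted p 0.0407 to 0.141). Neither gene passed for covariation with Fos in the striatum (adjusted p = 0.991 for each).

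Covariation inside groups was measured as the slope of each gene's log2 level on that of Fos, with genotype as a term, in the 15 samples of a region. In the cortex 8 of 9 members passed, where 0.121% of 16506 genes did (20 genes). Junb, a partner of Fos in AP-1, followed Fos most closely, with a slope of 0.92 (SE 0.047, adjusted p = 1.61e-08). In the WT cortex its normalized counts were 3160.2, 1046, 978, 1411 and 2534, beside the Fos values given above. Both were high in replicates 1 and 5 and low in replicates 2 and 3. A slope of 1 means that a doubling of Fos came with a doubling of the other gene. Egr2 had a slope of 1.16 (SE 0.10), Arc 1.09 (SE 0.14), Dusp1 0.94 (SE 0.095) and Nr4a1 0.74 (SE 0.069), and the slopes of Fosb (0.51), Egr4 (0.49) and Egr1 (0.44) were shallower, with adjusted p values of 0.00558, 0.0449 and 0.0161. Npas4 did not pass (slope 0.50, SE 0.17, adjusted p = 0.509). Without Shank3-HT replicate 1, 5 of 9 passed, and Fosb, Egr1 and Egr4 did not (adjusted p 0.0649, 0.0968 and 0.300). With Egr1 in place of Fos as the reference, 5 of 9 passed.

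Npas4, which responds to calcium entry more selectively than the other members do, had 1571, 1057, 421, 1049 and 1492 in the WT cortex and 782, 933, 1443, 775 and 769 in the Shank3-HM cortex. In Shank3-HM replicate 1 it was the median of its group, while Fos (1229.7, 685, 1309.7, 643 and 993 in this group) was the next to highest. In replicate 3 both were at their highest. Replicate 2 of the WT cortex was the group median for Npas4 and the lowest of its group for Fos.

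In the hippocampus 3 of 9 members passed, where 0.0241% of 16570 genes did (4 genes). These were Nr4a1 (slope 0.53, SE 0.066, adjusted p = 0.00371), Junb (0.53, SE 0.065, adjusted p = 0.00371) and Egr4 (0.54, SE 0.087, adjusted p = 0.0443). All 9 slopes were positive, and Dusp1, Fosb, Egr2 and Arc had adjusted p values of 0.105 to 0.131. In the striatum 5 of 9 passed, where 0.0425% of 16481 genes did (7 genes). Arc followed Fos most closely there (slope 0.69, SE 0.067, adjusted p = 0.000243), and Dusp1 (0.42), Junb (0.49), Nr4a1 (0.62) and Egr2 (0.60) also passed. These calls rested on WT replicate 3, where Fos was 92.1 and Arc 1572: without it 0 of 9 passed. Leaving out each sample in turn gave 5 to 8 in the cortex, 2 to 3 in the hippocampus and 0 to 5 in the striatum. With Egr1 as the reference 0 of 9 passed in hippocampus and in striatum.

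As correlations of deviations from the group means, the 27 relations of Fos with the other members had median Pearson's r values of 0.896 (cortex), 0.835 (hippocampus) and 0.869 (striatum) (n = 15 each, 100000 permutations within genotypes, smallest possible p = 1e-05). After adjustment over the 27, permutation p values of r were under 0.05 for 9, 9 and 9 relations and those of Spearman's rho for 8, 8 and 7. The highest was Junb in the cortex (r = 0.986, rho = 0.993, adjusted permutation p = 0.000135 for both, r = 0.980 without the 2 samples farthest from the median of Fos). The lowest were Egr1 in the striatum (r = 0.579, adjusted permutation p = 0.0415, rho = 0.436, adjusted permutation p = 0.143) and Npas4 in the cortex (r = 0.583, adjusted permutation p = 0.0494, rho = 0.504, adjusted permutation p = 0.0796). Without the 2 farthest samples (replicate 1 of WT and Shank3-HT in cortex and hippocampus, replicates 1 and 3 of WT in the striatum) r ranged from 0.468 to 0.980, 0.558 to 0.904 and 0.373 to 0.857. Values of 1 library share its normalization, which enters all members alike.

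**Figure D3:**
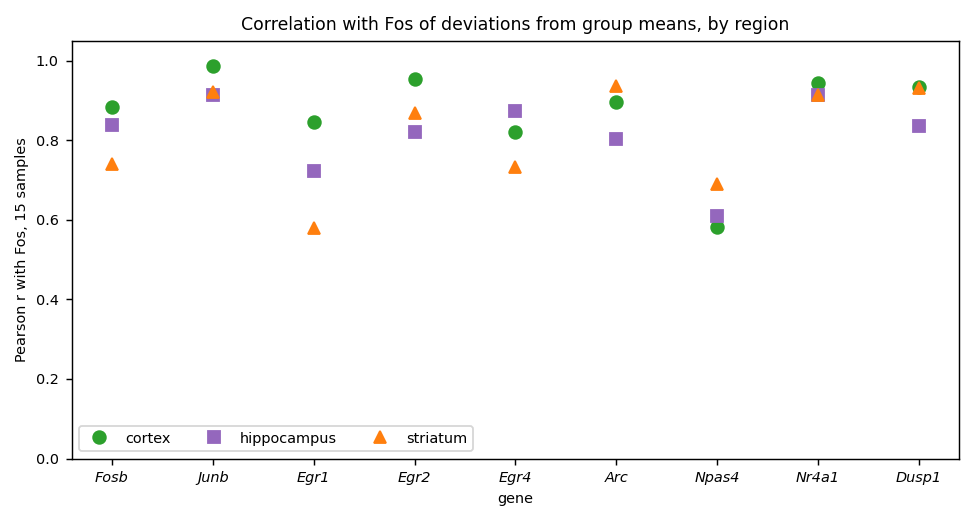
Pearson's r (y axis) between Fos and each other member (x axis), from deviations from the group means in the 15 samples of the cortex (green circles), hippocampus (purple squares) and striatum (orange triangles). Junb and Nr4a1 lie above 0.9 in all 3 regions, and Npas4 (0.583 to 0.689) and striatal Egr1 (0.579) lie lowest.

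Of the other pathway genes, 5 of 19 immediate early transcription factors passed for covariation with Fos in the cortex (Ier2, Btg2, Per1, Klf10 and Csrnp1) and 5 of 29 effectors (Arl4d, Ccn1, Trib1, Dusp6 and Sik1). Ier2, a nuclear protein of the same early response, had a slope of 0.90 (SE 0.098, adjusted p = 0.000275), and Ccn1, a matrix protein, one of 1.25 (SE 0.16, adjusted p = 0.0013). In the striatum Btg2 (0.53) and Arl4d (0.34) passed and in the hippocampus 0 of either list, where 7 and 7 had an unadjusted p below 0.05, as did 6.82% of all genes. Of the 25 upstream genes and 8 binding partners 0 passed in any region, beside 1, 3 and 0 upstream genes and 2, 0 and 1 partners at an unadjusted p below 0.05 (8.19%, 6.82% and 4.27% of all genes in cortex, hippocampus and striatum). The 20 cortical genes thus comprised 8 members, 10 genes of the other lists and 2 genes of no list, Midn (slope 0.33, adjusted p = 0.00558) and 1700016P03Rik (1.21, adjusted p = 0.0115). The latter was also the only called gene outside the members in the hippocampus (1.22, adjusted p = 0.0274). Midn is named after its values were seen.

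The samples with high or low levels were the same for most members. In WT replicate 1 all 10 members were above their group mean in each region, and in Shank3-HM replicate 3 likewise. In Shank3-HM replicate 4 no member was above its group mean in any region, and in WT replicate 3 there were 0, 2 and 0 of 10 in cortex, hippocampus and striatum. Averaged over members and regions, the log2 deviation was 0.64 in WT replicate 1, 0.55 in Shank3-HT replicate 1, 0.45 in WT replicate 5 and 0.41 in Shank3-HM replicate 3. At the other end it was -0.64 in WT replicate 3, -0.39 in WT replicate 2 and -0.36 in Shank3-HM replicate 4. Each of these 7 had the same sign in all 3 regions, and both the highest and the lowest set of samples were WT.

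**Figure D4:**
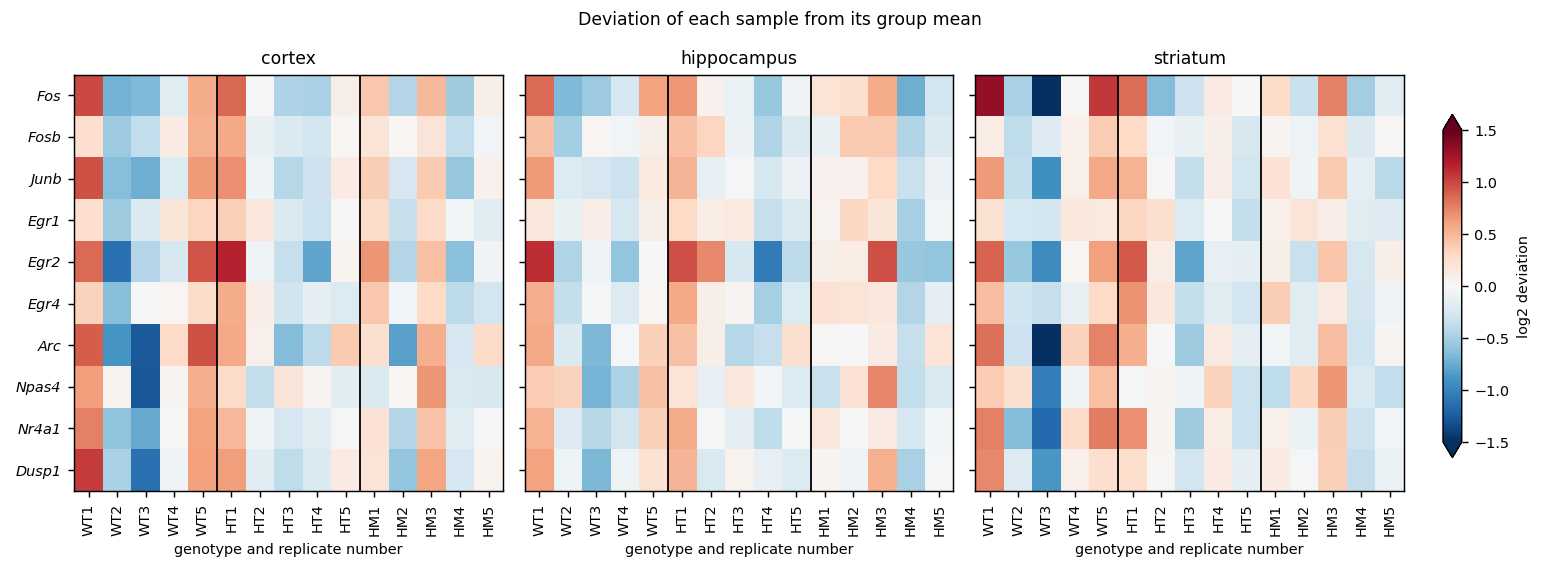
Log2 deviation of each sample from its group mean (colour, red higher and blue lower, scale from -1.5 to 1.5) for the 10 genes (rows) in the 15 samples (columns, by genotype and replicate number) of each region. Columns are mostly of 1 colour, red in WT replicate 1 (mean deviation 0.64 over the regions), blue in WT replicate 3 (-0.64).

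Same-numbered samples of a genotype were then compared between regions, although the labels do not say that they came from 1 mouse. For Fos, Pearson's r over 15 pairs was 0.886 between cortex and hippocampus (adjusted permutation p = 0.0022, rho = 0.889, adjusted permutation p = 0.0035), 0.829 between cortex and striatum (adjusted permutation p = 0.00231, rho = 0.825, adjusted permutation p = 0.0072) and 0.766 between hippocampus and striatum (adjusted permutation p = 0.0061, rho = 0.70, adjusted permutation p = 0.02). Without the 2 pairs farthest from the median the values of r were 0.816, 0.745 and 0.653. Over the 10 members the median r was 0.844, 0.859 and 0.767, and 9, 10 and 9 of 10 had an adjusted permutation p of r under 0.05 (adjusted over 30 relations), and 9, 9 and 6 of rho. For comparison, the median r over all 16708 genes was 0.131, 0.149 and 0.145. Egr1 departed from the others, with r = 0.271 between cortex and hippocampus (adjusted permutation p = 0.336, rho = 0.257, adjusted permutation p = 0.379, r = 0.131 without the 2 farthest).

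**Figure D5:**
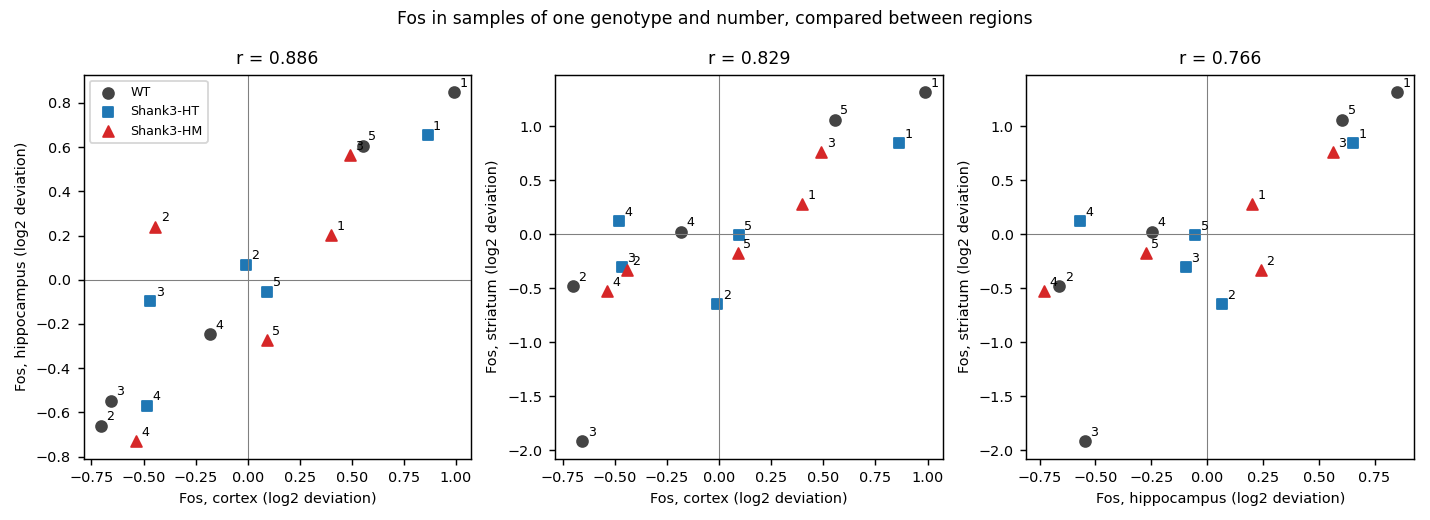
Log2 deviation of Fos from its group mean in 1 region (x axis) against that in another (y axis) for same-numbered samples of a genotype, WT as grey circles, Shank3-HT as blue squares and Shank3-HM as red triangles, 15 pairs in each panel. Pearson's r is 0.886, 0.829 and 0.766, and 11 of 15 pairs lie on the same side of 0 in both regions in each panel (exceptions include Shank3-HM replicate 2, which was above its group mean in the hippocampus alone).

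In 1 limma fit of all 45 samples, with group terms and a term for each genotype and number, an F test of the latter passed for 10 of 10 members (adjusted p 2.94e-08 for Npas4 to 0.029 for Egr1), where 6.31% of 16708 genes passed. This test was added after the data had been seen. The share of a member's spread inside groups that lay in the mean of same-numbered samples over the 3 regions ranged from 62.9% (Egr1) to 90.4% (Npas4). The median over all genes was 40.9%. Unrelated regions also leave part of their spread in such a mean, so this share overstates what the regions have in common. Npas4, which had the lowest r with Fos in cortex and hippocampus, had the highest such share, with 258, 379, 542, 252 and 278 in the Shank3-HM hippocampus and 869, 1407, 1786, 969 and 877 in the Shank3-HM striatum. Replicate 3 was the highest and replicate 2 the next highest in both.

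The correlation of each member with the mean deviation of the 10, over 45 samples, was highest for Junb (0.969), Nr4a1 (0.958) and Fos (0.945) and lowest for Npas4 (0.695). Each gene is part of that mean. Outside the members, the genes most like the mean deviation were 1700016P03Rik (r = 0.874), Dusp6 (0.873), Sik1 (0.862), Btg2 (0.855) and Ccn1 (0.848). Dusp6 is a phosphatase of ERK, Sik1 a kinase that restrains CREB coactivators, and Btg2 an antiproliferative factor. 1700016P03Rik is annotated as a processed transcript at chr11:75172560-75177633 (GRCm38, plus strand), and the miRNA genes Mir212 (chr11:75173388-75173478) and Mir132 (chr11:75173682-75173747) lie inside it on the same strand. By region its r was 0.914 (cortex), 0.838 (hippocampus) and 0.862 (striatum). These likenesses are descriptions over samples that share libraries, with no test.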

How the data were processed

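RNA was sequenced from 45 samples (TruSeq stranded mRNA libraries). Per their methods and processing notes, the authors quantified transcripts with Salmon 1.1.0 against GRCm38 with GC bias correction, imported them with tximport and normalized over all 45 samples with DESeq2. The versions in the processing notes are DESeq2 1.26.0 and R 3.6.2, and the paper's methods name later versions of both. The deposited signal values are normalized counts with decimals, with symbols matched for 18120 of 18135 identifiers. Whole reads could not be recovered (13.4% to 34.7% of low values per sample lay within 0.05 of a whole multiple, where chance gives 10%), so no count model was used and depth is not known. Totals of 26118607 to 29568983 per sample reflect the normalization.

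Tests used limma 3.58.1 in R 4.3.3 (lmFit, eBayes with an intensity trend) on log2(value + 1), for genes with a mean of at least 10 in the samples fitted, with Benjamini-Hochberg adjustment over all genes and a threshold of 0.05. A fold change on this scale understates the change of low genes. Genotypes were compared within each region (15 samples), and regions and interactions in a fit of the 9 groups, which treats samples of different regions as independent. Correlations used deviations from group means and 100000 two-sided permutations within genotypes. Alternatives were quantile normalization, no intensity trend, a pseudocount of 0.1, no filter or a mean of at least 100, the 2 groups alone, the replicate number as a block, Egr1 in place of Fos, and leaving out each sample. The members, the 4 other gene lists and the marker lists were chosen with earlier results of these data known.

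Named were all 10 members, other listed genes past the threshold (at most 5 per list and comparison), and the 5 other genes most like the members' mean deviation. Gene lengths and loci are from GENCODE (GRCm38), promoters from RefSeq. Permutations and motif searches ran in Python 3.11.15 (scipy 1.17.1, pandas 2.3.3, numpy 2.4.6), and plots in matplotlib 3.10.9.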

Additional observations from a re-analysis of the deposited data

Results flagged for a closer look

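Each member was screened in each of the 9 groups for a sample standing apart from the other 4 (Dixon's ratio above 0.71), which chance alone would meet in about 1 of 20 groups. Of 90 combinations of gene and group, 5 met it, all at the high end. In the Shank3-HT hippocampus replicate 1 had 1940.2 normalized counts of Junb, and the nearest sample had 1329. In the Shank3-HT cortex replicate 1 had 782 of Egr2 (nearest 365) and 6042 of Nr4a1 (nearest 4252). In the WT hippocampus replicate 1 had 106 of Egr2 (nearest 48.8). In the Shank3-HM cortex replicate 3 had 1443 of Npas4 (nearest 933).

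For Nptx2 the Shank3-HM effect differed between regions in the limma interaction tests. Its Shank3-HM fold change in the cortex minus that in the striatum was -0.84 (SE 0.17, adjusted p = 0.0406), and past the threshold in 11 of 23 alternatives (adjusted p 0.0075 to 0.114, the highest without cortical Shank3-HM replicate 2). For the hippocampus minus the striatum it was -0.89 (SE 0.17, adjusted p = 0.0226), past the threshold in 15 of 23 alternatives (adjusted p 0.00381 to 0.07). In the cortex Nptx2 was 1044 ± 199.8 (SD, n = 5) in WT and 973 ± 157 in Shank3-HM samples, and in the hippocampus 419.9 ± 72.8 and 374 ± 21.2.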

How the results depend on the processing

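Quantile normalization, a pseudocount of 0.1, no filter on low values and a minimum mean of 100 changed no count of members called by more than 1.5 times (Egr2 in the hippocampus was not tested at a mean of 100). Between genotypes and in the interactions 0 members passed under each alternative run. Between cortex and striatum in WT samples the count of 2 became 1 without the intensity trend, 0 with only the 2 groups, 4 with the replicate block, and 1 to 2 on leaving out a sample. In Shank3-HT samples (2) it was 5 with the block and 2 to 4 on leaving out a sample, and in Shank3-HM samples (3) it was 6 with the block. For covariation with Fos, the replicate block gave 4, 0 and 4 of 9 in cortex, hippocampus and striatum (and 1 rather than 5 of the other transcription factors and 1 rather than 5 of the effectors in cortex), and Egr1 as the reference gave 5, 0 and 0. Leaving out a sample gave 5 to 8, 2 to 3 and 0 to 5. The Fos fold change in Shank3-HT striatum ranged from -0.204 to 0.603 on leaving out a sample, and r of Fos between cortex and hippocampus was 0.816 without the 2 farthest pairs. The F test of genotype and number passed for 9 to 10 members in all its alternatives. The cause of these changes was not tested.

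By the rule used, the numbers were not taken to pair samples. Deviations of same-numbered samples over all genes correlated above 0.1 in 7 of 45 pairs between genotypes (-0.119 to 0.150) and in 16 of 45 pairs between regions (-0.100 to 0.225), where every pair had to. A sample matched its own number best in 9 of 30 cases between genotypes, where 6 would by chance, and in 26 of 45 between regions, where 9 would. The latter is a hint from the data that same-numbered samples of different regions share a mouse, which the labels do not state.

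Depth limits no value by a known amount, since the deposited values do not hold it, and the precision is that of 5 samples a group.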
